A study of Mus musculus with 6 samples.

Results

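Tenocytes of the mouse genioglossus, the tongue muscle that holds the upper airway open, were picked out of single-cell RNA libraries by a rule on raw UMI counts, the unique molecules read for a gene in 1 barcode. A barcode with 300 or more detected genes was a member when Tnmd, Scx and Mkx together had at least 1 UMI, Fmod, Thbs4 and Comp together at least 3, and Tnmd and Thbs4 together at least 2. Members also had 0 UMIs over the endothelial genes Pecam1 and Cdh5 and the leukocyte gene Ptprc, and no more than 1 UMI over the mural genes Kcnj8 and Myh11. The rule kept 1103 of 56309 barcodes. The OSA libraries held 240, 294 and 397 members of 15714, 12587 and 14310 barcodes in replicates 1, 2 and 3, and control replicate 2 held 172 of 13698.

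The libraries were prepared on the 10x Genomics platform from male mice. The submitters made 3 from an obstructive sleep apnea (OSA) model, labelled OSA-4W, and 3 from controls, all at week 4 and all labelled batch 1. The 3 OSA libraries and control replicate 2 were read, while control replicates 1 and 3 are not analysed here. The labels name no strain, age, allele or agent, give no account of how OSA was induced, and do not tie a library to 1 animal or to pooled animals. P-values therefore measure the spread between these libraries, which may be technical, and every comparison takes the spread from the 3 OSA libraries and assumes that the lone control varies like them. The labels call the material skeletal muscle cells, but the files hold the whole cell suspension of the muscle, of which the tenocytes were a small share.

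Tendon cells, or tenocytes, lie between parallel bundles of type I collagen and make the matrix that carries force between muscle and bone. Scleraxis (Scx) and Mohawk (Mkx) are transcription factors of the tendon lineage, and tenomodulin (Tnmd) is a membrane protein made late in tendon differentiation. Fibromodulin (Fmod) is a small proteoglycan that controls how collagen fibrils grow, and thrombospondin 4 (Thbs4) and cartilage oligomeric matrix protein (Comp) are pentameric proteins that bind collagen. The genioglossus takes origin from the mandible through a short tendon, and its tendon cells are few beside its endothelium and fibroblasts.

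Members had 1757415, 2416356 and 2831611 UMIs in all in OSA replicates 1, 2 and 3, against 1208125 in control replicate 2. Their median depth was 7243, 7773 and 6521 UMIs in the OSA libraries and 7055 UMIs in the control. Any 2 libraries shared 52 to 67 barcode sequences over all cells, and no tenocyte barcode was shared. Scrublet, a doublet caller, marked 4, 1 and 9 members of the OSA libraries and 0 members of the control, and these were kept. Levels below are in CPM, a gene's count divided by the summed UMIs of its cells and brought to the usual common total, either unscaled or after TMM scaling of the library sizes, which corrects for differences in composition.

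In the cells that they chose, the genes of the rule are given as levels without a test. Fmod stood at 5878, 9344 and 10496 scaled CPM in the tenocytes of OSA replicates 1, 2 and 3, against 7809 in the control, so that the groups overlapped. Thbs4 stood at 4759, 6387 and 5290 scaled CPM in OSA tenocytes and 3957 in control tenocytes, with all OSA libraries above. Comp stood at 686, 1190 and 1198 scaled CPM in OSA tenocytes and 838 in the control. Tnmd stood at 892, 739 and 838 scaled CPM in OSA tenocytes and 720 in control tenocytes. Mkx varied least, at 155, 181 and 165 scaled CPM in OSA tenocytes and 173 in the control. Scx had the widest gap of the 6, at 165, 82.8 and 146 scaled CPM in OSA tenocytes and 392 in control tenocytes, where every OSA library lay below the control.

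The edge of the rule was described by the cells next to it. Barcodes that met every other condition but had 0 UMIs over Tnmd, Scx and Mkx numbered 372, 390 and 588 in the OSA libraries and 296 in the control. In these barcodes Fmod stood at 74.4, 252 and 252 unscaled CPM in the OSA libraries and 112 in the control. Members with exactly 1 such UMI numbered 45, 47 and 78 in the OSA libraries and 33 in the control, and their Fmod stood at 489, 1745 and 1825 unscaled CPM in the OSA libraries and 655 in the control. Keratocan (Kera), a small proteoglycan that the rule did not use, stood at 6.35, 12.2 and 17.0 unscaled CPM in OSA members with 1 such UMI and 7.71 in those of the control, and at 2.09, 1.78 and 2.36 in OSA barcodes just outside and 1.58 in those of the control. Few cells sat at the other edge: 16, 8 and 19 OSA members and 10 control members had 3 to 5 UMIs over Fmod, Thbs4 and Comp, and 7, 6 and 11 OSA barcodes and 4 control barcodes fell just short with 2.

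Tenocytes made up 1.53% of barcodes in OSA replicate 1 (95% exact binomial interval 1.34 to 1.73), 2.34% in replicate 2 (2.08 to 2.61) and 2.77% in replicate 3 (2.51 to 3.06), against 1.26% in the control (1.08 to 1.46). The 3 OSA libraries averaged 2.21% ± 0.633 (SD, n = 3) and all lay above the control, but the difference of 0.957 percentage points gave p = 0.5 in a two-sided exact permutation test over the 4 libraries, which cannot go below 0.25. When every barcode was first thinned to 1500 UMIs, which left 13795, 11272 and 12133 barcodes of the OSA libraries and 11989 of the control, the shares were 2.20%, 2.95% and 3.0% in the OSA libraries and 1.46% in the control, with an exact permutation p of 0.25, the smallest that this design allows. The whole rule, with its conditions of 0 UMIs, was applied anew to the thinned counts, so the members were not the same cells. They numbered 303, 333 and 364 in the OSA libraries and 175 in the control. A barcode was a fibroblast for comparison when it had Pdgfra, at least 3 UMIs over Dcn, Col1a1 and Col3a1, no UMI of Tnmd, Scx or Mkx, and the same negative conditions. Those fibroblasts took 4.85%, 7.03% and 8.16% of the OSA libraries and 6.88% of the control, on both sides of it. The intervals cover counting error only, and shares depend on which cells came out of the tissue in each library.

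**Figure D1:**
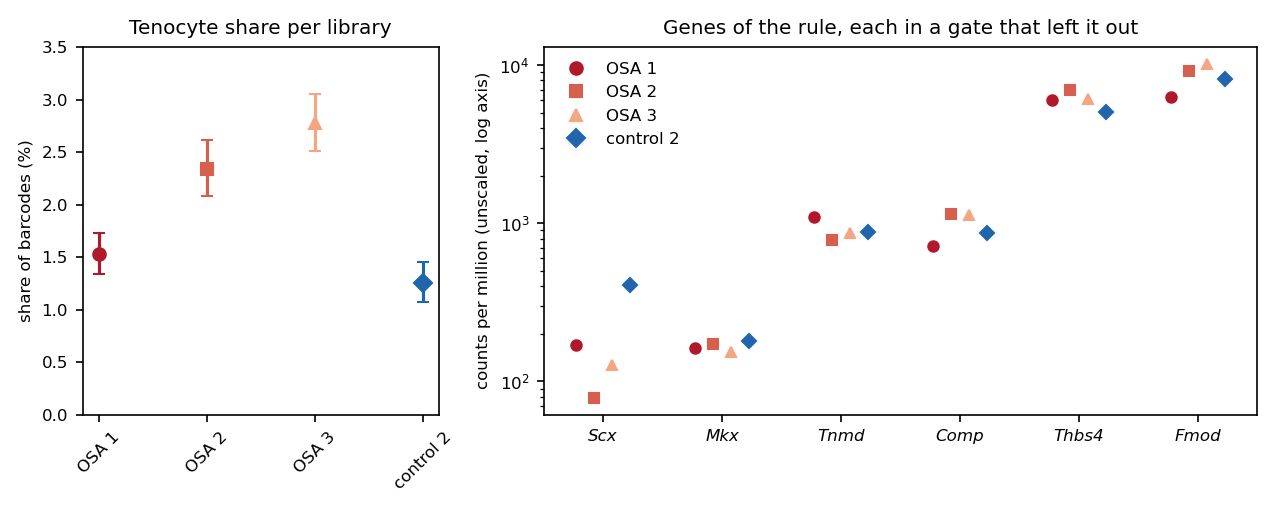
Left, share of barcodes that met the tenocyte rule in each library, in percent, with 95% exact binomial intervals. Right, unscaled CPM of 6 rule genes on a log axis, each in cells chosen with that gene left out of the rule, with 1 symbol a library. The OSA shares run from 1.53% to 2.77%, all above the 1.26% of the control, and Scx is the gene whose OSA points, 78.6 to 171, lie farthest under the control point of 408.

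The summed counts of the members held matrix and tendon genes that the rule had not used, though not in every subcluster. The 20 genes outside the rule with the largest ratio over all other barcodes, taking the lowest of the 4 libraries, were drawn from 2653 genes at 50 unscaled CPM or more in every library's tenocytes, and 39 of those genes reached a ratio of at least 5 in every library. They are a description of the cells and not a test, since the same cells were chosen on related genes. Cartilage intermediate layer protein 2 (Cilp2) came first, at 421, 746 and 709 unscaled CPM in the tenocytes of the OSA libraries and 441 in those of the control, 22.3 to 52.3 times its level in all other barcodes. Kera came next at 390, 233 and 186 unscaled CPM in OSA tenocytes and 192 in control tenocytes, 21.0 to 62.2 times the other barcodes. Chondroadherin (Chad), a leucine-rich protein that binds integrin and collagen, stood at 698, 990 and 1145 unscaled CPM in OSA tenocytes and 1016 in control tenocytes, 20.5 to 68.2 times the rest.

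Other genes of that set fell into clear roles. Type XI collagen, a minor fibrillar collagen that starts fibrils, was represented by Col11a1, at 280, 246 and 198 unscaled CPM in OSA tenocytes and 276 in the control, 17.0 to 41.0 times the rest, and by Col11a2. Angptl7, a secreted angiopoietin-like protein, stood at 2565, 4044 and 4180 unscaled CPM in OSA tenocytes and 1800 in the control, 18.3 to 26.2 times the rest. The collagen-anchoring proteoglycan Prelp stood at 1212, 1404 and 1525 unscaled CPM in OSA tenocytes and 1423 in the control, 10.1 to 16.5 times the rest. Cilp, Fibin, Thbs2, Col8a2, Cpxm2, C1qtnf3, C1ql3, Cntfr, Grik4, Ecrg4, Ptx4 and S100a5 completed the set together with Chodl, a membrane lectin that is also a satellite cell marker. Against fibroblasts the contrast was sharper for Kera, Cilp2 and Col11a1, at 181 to 717, 98.7 to 408 and 119 to 229 times. These 3 ratios are imprecise because the fibroblast levels were near the floor. Kera stood there at 0.54, 1.28 and 0.54 unscaled CPM in OSA and 0.54 in the control, and Cilp2 at 1.08 in the control. The contrast was milder for Cilp and Prelp, at 3.16 to 5.20 and 5.97 to 8.47 times.

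**Figure D2:**
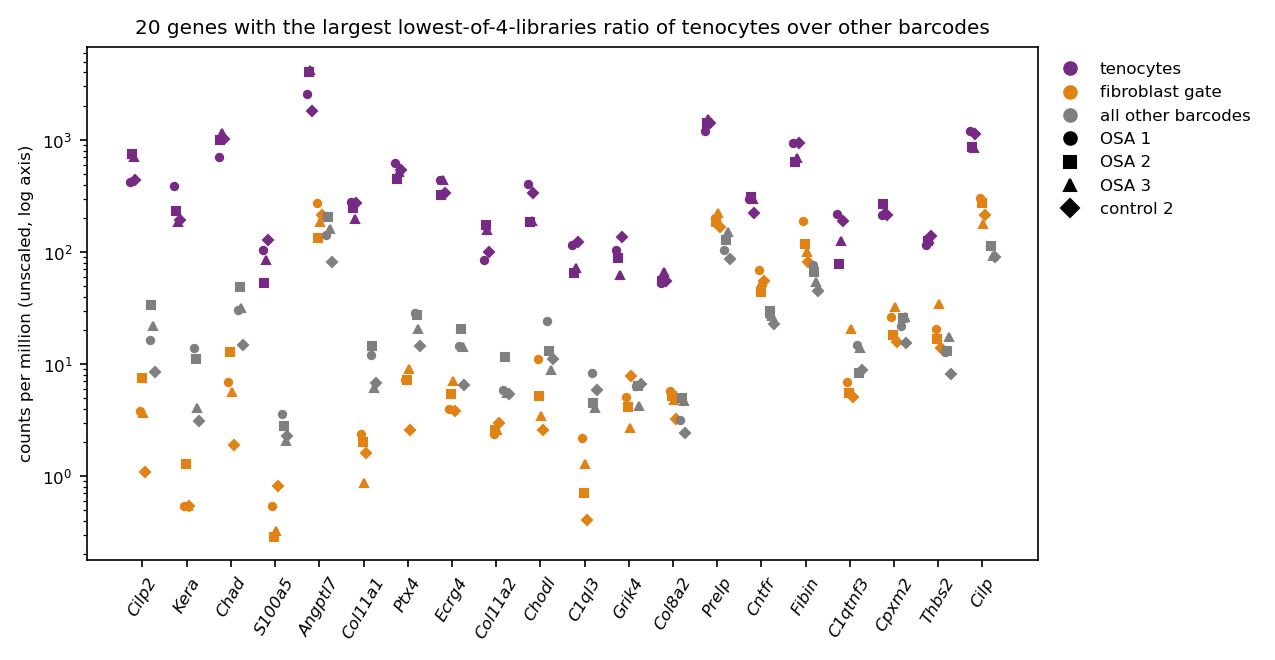
Unscaled CPM (log axis) of the 20 genes that stood out most in tenocytes, in tenocytes, in the fibroblasts and in all other barcodes, with 1 symbol a library. The tenocyte points of each gene lie above those of the other barcodes in all 4 libraries.

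Markers of other cell types were checked in the members. Endothelial markers summed to 1011, 829 and 612 unscaled CPM in OSA tenocytes and 742 in control tenocytes, against 10095, 8402 and 5105 in the remaining barcodes of the OSA libraries and 8876 in those of the control. Fibroblast markers summed to 2730, 2125 and 2948 unscaled CPM in OSA tenocytes and 2418 in control tenocytes. Of the chondrocyte list the summed level was 56.9, 369 and 250 unscaled CPM in OSA tenocytes and 241 in the control, most of it Ucma. Of its 9 markers, 5, 7 and 6 were detected in OSA tenocytes and 5 in control tenocytes. Matn1 was at 0 in all 4 libraries and Col9a1 was at 0 in OSA replicates 1 and 2 and the control. The satellite cell sum of 449, 231 and 229 unscaled CPM in OSA tenocytes and 358 in the control was mostly Chodl, with Myod1 at 0 in all 4. Osteoblast markers summed to 35.3, 37.2 and 22.2 unscaled CPM in OSA tenocytes and 24.0 in control tenocytes. In fibroblasts they summed to 38.1, 45.5 and 33.6 in OSA and 28.1 in the control. Of the 8 osteoblast markers, 2, 6 and 3 were detected in OSA tenocytes and 2 in control tenocytes. Only Sp7 and Dmp1 were at 0 in every library's tenocytes.

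Leukocyte transcripts were unequal between the libraries. The 10 macrophage markers summed to 138, 163 and 798 unscaled CPM in OSA tenocytes and 54.6 in control tenocytes, and 8 of 8 tested members were higher in OSA. Lyz2, the macrophage lysozyme, stood at 49.6, 49.3 and 386 scaled CPM in OSA tenocytes and 10.4 in the control. The 9 neutrophil markers summed to 97.9, 641 and 73.8 unscaled CPM in OSA tenocytes and 56.3 in the control, with S100a9, a neutrophil alarmin, at 16.3, 347 and 30.7 scaled CPM in OSA tenocytes and 3.19 in the control. Lymphocyte markers stayed at 2.28, 6.21 and 4.24 unscaled CPM in OSA tenocytes and 2.48 in the control. The 9 Schwann cell markers were lower in OSA for 7 of 8 tested members, summing to 806, 420 and 499 unscaled CPM in OSA tenocytes and 697 in the control. The part of these transcripts in the results below was not tested beyond the comparisons named in them.

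Clustering the 1103 members gave 5 subclusters, which are described by number and by their leading genes. Subcluster 0 was led by Ucma, a cartilage matrix protein, Epyc, a small proteoglycan, and Gpha2, and it held most of the Angptl7, at 9001 unscaled CPM within it and 1395 in the other members. Comp, Chad and Cilp2 were also among its leading genes. Subcluster 1 was led by Col22a1, the collagen of the muscle and tendon junction, at 176 unscaled CPM within it and 5.10 outside. It also held matrix Gla protein (Mgp), an inhibitor of calcification, at 23552 unscaled CPM within it and 6182 outside, and Kirrel3, Ptx4 and Chodl. Subcluster 2 was led by S100a5, C1qtnf3, myostatin (Mstn), tenascin C (Tnc) and Fibin. These 3 subclusters held Tnmd at 932, 1155 and 1280 unscaled CPM.

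The 2 remaining subclusters were less like tendon. Subcluster 3 was led by Inmt, Penk, Ccl11, Smoc2 and Myoc, held the fibroblast receptor Pdgfra at 180 unscaled CPM against 23.0 in the other members, and had Tnmd at 301, Mkx at 34.5 and Fmod at 1747 unscaled CPM. Subcluster 4, of 6, 2 and 31 OSA cells and 2 control cells, was led by the acute-phase genes Saa3 and Hp and the complement genes C4b and C3, together with the Schwann cell gene Mbp and the macrophage genes Ctss and Trem2. Its Tnmd was 126 unscaled CPM and its cells had a median of 9771, 10619.5 and 13622 UMIs in the OSA libraries and 6582 in the control. Since the leading genes of subclusters 3 and 4 go against the label, results are also given without them where that matters.

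The libraries did not divide alike among the subclusters, which is given as a description with no test. Subcluster 0 held 14.6%, 40.8% and 29.5% of OSA tenocytes and 22.7% of control tenocytes. Subcluster 1 held 26.3%, 35.7% and 29.7% of OSA tenocytes and 28.5% of control tenocytes. Subcluster 2 held 22.9%, 2.72% and 12.6% in the OSA libraries and 17.4% in the control, and subcluster 3 held 33.8%, 20.1% and 20.4% in the OSA libraries and 30.2% in the control. OSA replicate 2 thus had the most of subcluster 0 and the least of subcluster 2. OSA replicate 3 had the most of subcluster 4, at 7.81% of its tenocytes.

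**Figure D3:**
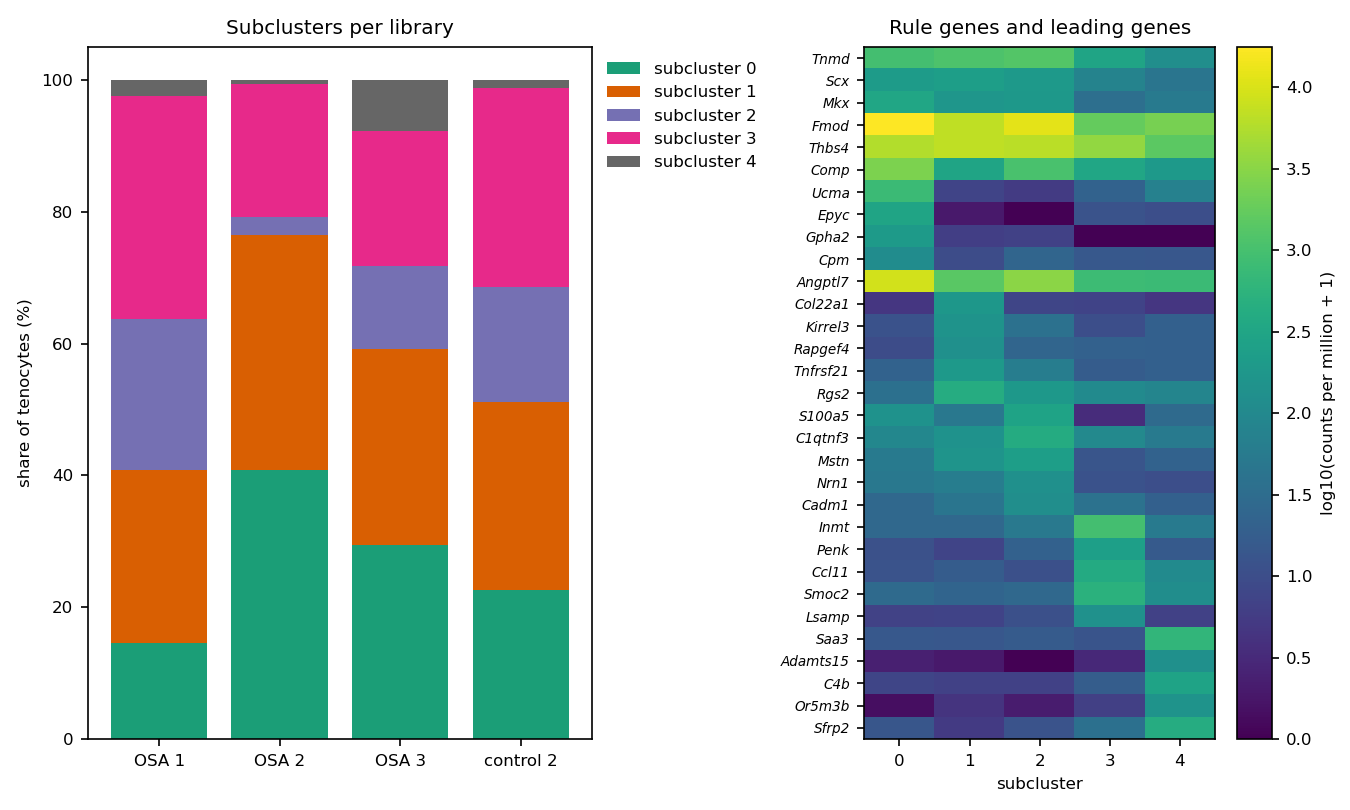
Left, percent of each library's tenocytes in each of 5 subclusters. Right, unscaled CPM per subcluster, as log10 of the value plus 1, of the 6 positive rule genes and of leading genes. Subcluster 0 ranges from 14.6% to 40.8% of OSA tenocytes and is 22.7% of control tenocytes, and Tnmd is lower in subclusters 3 and 4 than in 0 to 2.

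The comparison of OSA with control tenocytes called few genes. Of 11708 genes tested outside the rule on counts summed per library, 10 passed an adjusted p of 0.05, or 0.0854% of those tested, in the quasi-likelihood test of edgeR (Benjamini-Hochberg adjustment). Of these, 3 rose in OSA (0.0256%) and 7 fell (0.0598%). Without adjustment 621 genes had a p under 0.05, or 5.3%. All 3 OSA libraries lay above the control for 3064 genes, or 26.2%, and below it for 3070, also 26.2%. The median log2 change over all genes was 0.02, and 6089 of the 11708 genes were higher in OSA. With library totals alone in place of TMM scaling, 5107 of them were higher. Counts of higher members in the lists below are to be read beside these. The count of called genes depended on the libraries, being 63, 18 and 4 without OSA replicate 1, 2 or 3.

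Fn1, the gene of fibronectin, an adhesive glycoprotein of the matrix on which cells assemble collagen, was higher in tenocytes of OSA. It stood at 633, 482 and 779 scaled CPM in OSA tenocytes (mean 631 ± 149, SD, n = 3) and 225 in control tenocytes, so all 3 OSA libraries lay above the control. The log2 change was 1.49 ± 0.34 (SE; edgeR adjusted p = 0.0182). It lost the threshold with library totals alone, without OSA replicate 2 (adjusted p = 0.0618), without OSA replicate 3 (0.228) and without robust dispersions (0.287). Within subclusters 0, 1 and 2 alone the log2 change was 0.99, with an adjusted p of 0.341, and without subcluster 4 it was 1.21, with an adjusted p of 0.0417. Without the members that carried 3 or more UMIs over markers of other cell types it was 1.28 (adjusted p = 0.0344). By subcluster, Fn1 stood at 468, 533 and 362 unscaled CPM in OSA cells of subcluster 0 and 245 in control cells, at 1226, 537 and 525 in OSA cells of subcluster 1 and 345 in control cells, at 401, 545 and 356 in OSA cells of subcluster 2 and 314 in control cells, and at 513, 254 and 444 in OSA cells of subcluster 3 and 129 in control cells. The OSA libraries were above the control in each of these 4 subclusters. In subcluster 4 Fn1 stood at 759, 471 and 2314 unscaled CPM in OSA cells and 76.0 in the 2 control cells, and in fibroblasts Fn1 stood at 394, 330 and 980 scaled CPM in OSA and 363 in the control, where the groups overlapped.

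Tnfaip2, a gene induced by tumor necrosis factor, stood at 61.0, 123 and 90.2 scaled CPM in OSA tenocytes (mean 91.3 ± 30.8, SD, n = 3) and 19.2 in control tenocytes, and every OSA library lay above the control. The log2 change was 2.25 ± 0.38 (SE; edgeR adjusted p = 5.39e-05), with an adjusted p of 0.831 without OSA replicate 3 and 0.0508 without robust dispersions. Its level was highest in the subclusters that were less like tendon. Tnfaip2 stood at 140, 401 and 134 unscaled CPM in OSA cells of subcluster 3 and 45.3 in its control cells, and at 8.21, 8.26 and 9.41 in OSA cells of subcluster 0 and 3.89 in its control cells. With subclusters 0, 1 and 2 alone the log2 change was 1.81 ± 0.79 (SE), with an adjusted p of 0.718. Macrophage markers, given above, summed to 138, 163 and 798 unscaled CPM in OSA tenocytes and 54.6 in control tenocytes. Their part in the Tnfaip2 level was not tested beyond the comparisons that follow. Without the members that carried 3 or more UMIs over markers of other cell types the log2 change was 2.17 (adjusted p = 0.000156), and without subcluster 4 it was 1.98 (adjusted p = 0.000242).

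Rpl39, a small protein of the large ribosomal subunit, stood at 928, 767 and 351 scaled CPM in OSA tenocytes (mean 682 ± 298, SD, n = 3) and 129 in control tenocytes, for a log2 change of 2.41 ± 0.44 (SE; edgeR adjusted p = 0.0125). Its level went the same way outside the tenocytes, at 924, 799 and 384 unscaled CPM in all other barcodes of the OSA libraries and 173 in those of the control. The gene has many processed copies in the genome, and how its reads were assigned was not tested. Rpl39 missed the threshold with DESeq2 and after thinning to equal totals, at log2 changes of 2.41 and 2.40. Without robust dispersions its adjusted p was 0.0508. With library totals alone in place of TMM scaling the log2 change was 2.35 ± 0.88 (SE) and the adjusted p 0.999.

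The 7 genes that fell were low, and most of them rested on 1 control cell. Rasef had 30 control counts in 1 cell, Epha10 had 28 in 1 cell and Tas1r1 had 15 in 1 cell, while Rasef and Epha10 were at 0 in all 3 OSA libraries. Dnah2, an axonemal dynein chain, had 89% of its 27 control counts in 1 cell. Pola2, a subunit of DNA polymerase alpha, had 71% of its control counts in 1 cell, and Dcaf17 had 66%. Dact3, an inhibitor of Wnt signalling, was the 1 called gene whose control counts were spread, 57 of them over 45 cells. Dact3 stood at 20.7, 9.01 and 18.2 scaled CPM in OSA tenocytes and 45.5 in the control, a log2 change of -1.52 ± 0.37 (SE; edgeR adjusted p = 0.0443). Dact3 lost the threshold without OSA replicate 2 (adjusted p = 0.389, log2 change -1.22), without OSA replicate 3 (0.823), without robust dispersions (0.461), with the stricter gate (0.0822), after thinning (0.382), with subclusters 0, 1 and 2 alone (0.164), with library totals alone (0.197), without members that carried markers of other cell types (0.065) and with DESeq2, and its log2 change stayed between -1.73 and -1.22 in all alternatives run.

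Among genes that did not pass the threshold, the next by unadjusted p are given as values. Gpha2, a glycoprotein hormone subunit and a leading gene of subcluster 0, stood at 32.7, 63.5 and 92.1 scaled CPM in OSA tenocytes and 13.6 in the control (log2 change 2.22 ± 0.51, edgeR adjusted p = 0.102). Creld2, an endoplasmic reticulum chaperone, stood at 70.3, 158 and 173 scaled CPM in OSA tenocytes and 46.3 in the control (adjusted p = 0.237). Pnpla7, a lysophospholipase, stood at 32.7, 47.2 and 31.5 in OSA tenocytes and 11.2 in the control. Values of Uck2, Aup1, Sult1a1, Lrmda, Adh1 and Xdh were likewise above the control in all 3 OSA libraries, with log2 changes between 1.08 and 1.41. All these genes have adjusted p-values above 0.05 in edgeR's quasi-likelihood test.

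On the lower side the clock repressor Bhlhe41 stood at 32.7, 20.6 and 18.6 scaled CPM in OSA tenocytes and 60.7 in the control (log2 change -1.36 ± 0.33, edgeR adjusted p = 0.0518). Myoc, myocilin, a leading gene of subcluster 3, stood at 507, 235 and 210 scaled CPM in OSA tenocytes and 759 in the control (adjusted p = 0.291). Gas1, a membrane protein that binds hedgehog, stood at 541, 338 and 400 scaled CPM in OSA tenocytes and 751 in the control. Cbx5, a heterochromatin protein, stood at 45.2, 53.6 and 43.6 scaled CPM in OSA tenocytes and 101 in the control. Eid1, Pknox2, Gpc3, Zfp664, Gnb4, Cacybp, Ahdc1 and Cadm1 were also below the control in all 3 OSA libraries, with log2 changes between -1.10 and -0.87. With subclusters 0, 1 and 2 alone Gpc3, a leading gene of subcluster 3, was higher in OSA tenocytes, at a log2 change of 1.29. All of them missed the threshold.

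Scx was lower in OSA tenocytes also when it played no part in choosing them. With Scx left out of the rule, 229, 286 and 382 OSA cells and 159 control cells remained, and Scx stood at 171, 78.6 and 128 unscaled CPM in OSA cells and 408 in control cells, with all 3 OSA libraries below. The log2 change was -1.63 ± 0.28 (SE; edgeR adjusted p = 7.25e-06), in a fit of 11577 genes of which 21, or 0.181%, were called. This gate was chosen after the data were seen, when Scx had shown the widest gap of the positive rule genes. The adjusted p does not cover that choice. The adjusted p was 9.35e-06 without OSA replicate 1, 0.0335 without OSA replicate 2 and 0.685 without OSA replicate 3, with log2 changes of -1.84, -1.38 and -1.68. Scx has an antisense overlap with Bop1, which stood at 19.3, 39.7 and 28.6 unscaled CPM in OSA tenocytes and 24.8 in the control.

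Scx levels by subcluster are a description only, since the members were admitted partly on Scx. Scx stood at 296, 76.4 and 215 unscaled CPM in OSA cells of subcluster 0 and 626 in its control cells, at 254, 111 and 152 in OSA cells of subcluster 1 and 747 in its control cells, and at 176, 132 and 153 in OSA cells of subcluster 2 and 331 in its control cells. In subcluster 3 Scx stood at 84.0, 43.5 and 89.0 unscaled CPM in OSA cells and 103 in control cells, a smaller gap in the same direction. Over all other barcodes Scx was at 8.67, 5.30 and 4.58 unscaled CPM in the OSA libraries and 9.79 in the control. For the 5 other positive rule genes the same approach gave no call: Tnmd changed by 0.12 ± 0.30 (log2, SE), Mkx by -0.07 ± 0.29, Fmod by 0.16 ± 0.32, Comp by 0.29 ± 0.31 and Thbs4 by 0.42 ± 0.29, each in the gate that left that gene out.

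Whether tenocytes and fibroblasts of the same libraries changed differently was asked with a fit that holds both and the library as a block. Of 14083 genes outside the rules, 2 passed an adjusted p of 0.05 in edgeR, or 0.0142%, and 864 (6.14%) had an unadjusted p under 0.05. Within fibroblasts alone 5 of 14355 genes (0.0348%) passed. Tnfaip2 changed more in tenocytes, with a difference in log2 change of 1.87 ± 0.26 (SE; edgeR adjusted p = 0.00957), and its fibroblast level was 257, 400 and 318 scaled CPM in OSA and 249 in the control. Prg4, lubricin, the lubricating glycoprotein of tendon and joint surfaces, changed less in tenocytes than in fibroblasts, with a difference of -1.53 ± 0.16 (SE; edgeR adjusted p = 0.000717). Prg4 stood at 2568, 4033 and 2368 scaled CPM in OSA tenocytes and 3062 in control tenocytes, with overlapping groups. In fibroblasts it stood at 585, 1212 and 740 scaled CPM in OSA and 291 in the control. The count of called genes in this fit was 29, 89 and 0 without OSA replicate 1, 2 or 3.

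Of the 20 tenocyte-enriched genes, 3 had all 3 OSA libraries above the control in tenocytes and 5 had all below, by unscaled CPM. Of all genes tested in tenocytes, 26.2% lay on each side by scaled CPM. In all other barcodes 14 of the 20 were above and 1 was below. The share of all genes on each side was not computed there or in fibroblasts, so the counts in those cells are a description without a background. In the fibroblasts, 12 of the 20 had all 3 OSA libraries above the control and 3 had all below, which were S100a5, Col11a2 and Grik4. Of the 12 genes above the control there, 2 are given that were chosen after their values were seen. Chad stood at 6.89, 12.8 and 5.61 unscaled CPM in OSA and 1.89 in the control, and Cilp2 at 3.81, 7.56 and 3.67 in OSA and 1.08 in the control. Fmod is a rule gene, not one of the 20, and was also chosen after its values were seen. In fibroblasts Fmod stood at 46.6, 95.7 and 76.4 unscaled CPM in OSA and 18.1 in the control. Fmod was also read in endothelial barcodes, which should lack it and were taken as those with 2 or more UMIs over Pecam1 and Cdh5, 0 over Ptprc and Pdgfra and 0 over Tnmd, Scx and Mkx. There it stood at 27.8, 55.7 and 60.2 unscaled CPM in the OSA libraries and 17.2 in the control. The part of such transcripts in the fibroblast level of Prg4 was not tested.

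**Figure D4:**
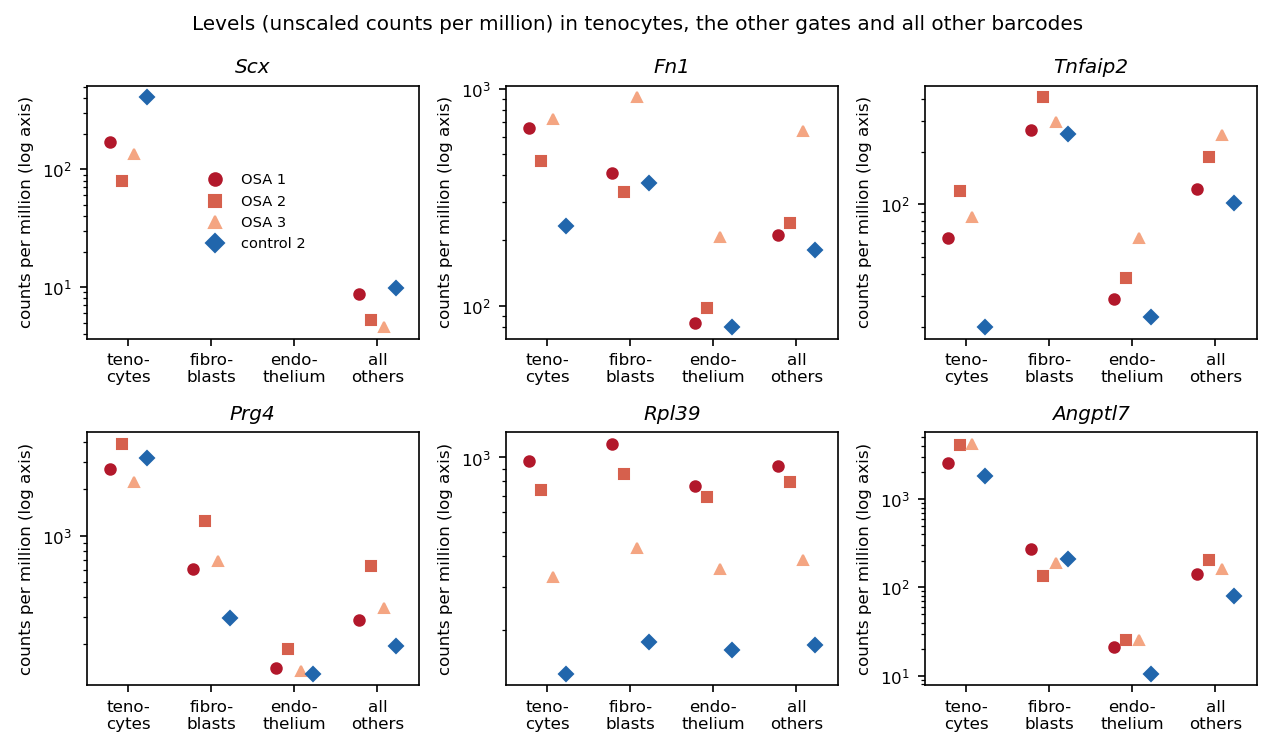
Unscaled CPM (log axis) of 6 genes in tenocytes, fibroblasts, endothelial barcodes and all other barcodes, with 1 symbol a library. In tenocytes Scx is lower in the 3 OSA libraries than in the control, and Fn1, Tnfaip2, Angptl7 and Rpl39 are higher, while Rpl39 is higher in all 4 sets of cells. Scx is at 0 by construction in fibroblasts and endothelial barcodes and is not drawn there.

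Collagen genes are described next. Of 11 fibrillar collagens tested, 9 were higher in OSA tenocytes, 4 had all OSA libraries above the control (36.4%, against 26.2% of all genes) and 0 had all below, with a median log2 change of 0.24. None passed edgeR's test. Col1a1, the main chain of tendon fibrils, stood at 5810, 6627 and 7404 scaled CPM in OSA tenocytes and 4142 in the control, a log2 change of 0.68 ± 0.34 (SE; edgeR adjusted p = 0.932). Its partner chain Col1a2 stood at 4325, 5047 and 4828 scaled CPM in OSA tenocytes and 3141 in the control. Col3a1, the collagen of thin fibrils, stood at 1319, 874 and 1334 scaled CPM in OSA tenocytes and 792 in the control. By subcluster, Col1a1 lay above the control in all 3 OSA libraries of subclusters 0, 2 and 3, but not in subcluster 1, at 5589, 5988 and 5992 unscaled CPM in OSA cells and 6139 in control cells.

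Of 17 other collagens, 13 were higher, 7 had all OSA libraries above the control (41.2%, against 26.2% of all genes) and 2 all below, with a median log2 change of 0.27. Col4a1 stood at 477, 723 and 476 scaled CPM in OSA tenocytes and 399 in the control, and Col4a2 at 625, 841 and 679 in OSA tenocytes and 527 in the control, both being chains of basement membrane collagen. Col6a1, of the beaded collagen around cells, stood at 586, 568 and 576 scaled CPM in OSA tenocytes and 428 in the control. The small leucine-rich proteoglycans, which coat fibrils, had 6 of 10 higher and a median log2 change of 0.03, against 4 of 10 higher and a median of -0.06 with library totals alone. Decorin (Dcn), the most abundant of them in CPM, stood at 12985, 14316 and 14642 scaled CPM in OSA tenocytes and 13886 in the control.

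The enzymes and chaperones that process collagen had the largest share of members above the control among the matrix lists. Of 24 tested, 19 were higher and 14, or 58.3%, had all 3 OSA libraries above the control, against 26.2% of all genes, with 1 all below and a median log2 change of 0.24. None passed the test. Serpinh1, the collagen chaperone HSP47, stood at 1177, 1669 and 1807 scaled CPM in OSA tenocytes and 925 in the control, a log2 change of 0.75 ± 0.33 (SE; edgeR adjusted p = 0.805). Pcolce, an enhancer of procollagen cleavage, stood at 942, 998 and 1100 scaled CPM in OSA tenocytes and 941 in the control, a gap smaller than the spread of the OSA libraries. The crosslinking enzyme gene Loxl1 stood at 264, 251 and 430 scaled CPM in OSA tenocytes and 239 in the control.

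Proteases and their inhibitors gave the highest median among the matrix lists, 0.42, with 16 of 21 higher, 9 all above (42.9%, against 26.2% of all genes) and 1 all below. Timp1, an inhibitor of matrix metalloproteinases, stood at 160, 450 and 340 scaled CPM in OSA tenocytes and 107 in the control, a log2 change of 1.57 ± 0.46 (SE; edgeR adjusted p = 0.517). Timp2 stood at 1144, 1363 and 1697 scaled CPM in OSA tenocytes and 1129 in the control. The gelatinase gene Mmp2 stood at 713, 585 and 1001 scaled CPM in OSA tenocytes and 609 in the control, with overlapping groups. Elastic fibre genes were higher for 11 of 14, with 5 all above (35.7%, against 26.2% of all genes) and a median of 0.18, and none passed.

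The matricellular and adhesive list, which holds Fn1, had 1 member that rose of 20 tested, 7 all above the control (35%, against 26.2% of all genes), 3 all below and a median log2 change of 0.05, which was -0.03 with library totals alone in place of TMM scaling. Sparc, which binds collagen during secretion, stood at 9592, 9978 and 12758 scaled CPM in OSA tenocytes and 8605 in the control. Ccn1 stood at 1172, 1222 and 1228 scaled CPM in OSA tenocytes and 1157 in the control, and Ccn2 at 725, 1101 and 831 in OSA tenocytes and 979 in the control, so these targets of mechanical signals were close to the control. Sparcl1 stood at 1006, 693 and 441 scaled CPM in OSA tenocytes and 1027 in the control. The mechanosensing list had 15 of 22 higher, against 6089 of all 11708 genes. With library totals alone it had 10 of 22 higher, against 5107 of all 11708 genes. It had 5 all above and 5 all below, or 22.7% each, against 26.2% of all genes each way. Egr1, an early response factor that acts in tendon, stood at 1823, 1941 and 1887 scaled CPM in OSA tenocytes and 2186 in the control.

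Other tendon genes outside the rule had 14 of 18 members higher, 7 all above the control (38.9%, against 26.2% of all genes), 2 all below and a median log2 change of 0.25. Angptl7 led them at 2455, 4191 and 4486 scaled CPM in OSA tenocytes and 1737 in the control, a log2 change of 1.10 ± 0.35 (SE; edgeR adjusted p = 0.316). It was above the control in all 3 OSA libraries also within subcluster 0, at 7931, 8517 and 11299 unscaled CPM in OSA cells and 5190 in control cells, and within subclusters 1, 2 and 3. Ptgis, prostacyclin synthase, stood at 429, 760 and 805 scaled CPM in OSA tenocytes and 562 in the control, on both sides of it. Fibin stood at 895, 657 and 748 scaled CPM in OSA tenocytes and 906 in the control. Genes of the tendon sheath had 5 of 11 higher, 1 all above (9.09%) and 3 all below (27.3%), against 26.2% of all genes each way. Pdgfra stood at 79.5, 64.3 and 53.1 scaled CPM in OSA tenocytes and 108 in the control.

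Fibrocartilage genes, which tendon cells use where tendon meets bone, were higher for 9 of 13. Of these 13, 3 were all above (23.1%) and 2 all below (15.4%), against 26.2% of all genes each way. Mgp stood at 8813, 11717 and 13127 scaled CPM in OSA tenocytes and 7817 in the control, a log2 change of 0.52 ± 0.34 (SE) that missed the threshold. TGF-beta, BMP and GDF genes were higher for 14 of 28, with 6 all above (21.4%) and 7 all below (25%), near the share of all genes. IGF, FGF and WNT genes were higher for 13 of 27, with 4 all above the control (14.8%) and 10 all below (37.0%), against 26.2% of all genes each way, and a median log2 change of -0.13. Igfbp4 stood at 669, 703 and 1191 scaled CPM in OSA tenocytes and 534 in the control. Igfbp5 stood at 429, 925 and 820 scaled CPM in OSA tenocytes and 796 in the control.

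Stress and metabolic lists follow. Hypoxia and glycolysis genes were higher for 22 of 28, with 13 all above the control (46.4%, against 26.2% of all genes) and 4 all below, at a median log2 change of 0.21, and none passed. Hk2, hexokinase 2, stood at 236, 459 and 376 scaled CPM in OSA tenocytes and 180 in the control, a log2 change of 0.99 ± 0.33 (SE; edgeR adjusted p = 0.405). Gapdh stood at 542, 692 and 754 scaled CPM in OSA tenocytes and 522 in the control. Vegfa, a target of hypoxia-inducible factors, went the other way, at 14.2, 17.6 and 12.1 scaled CPM in OSA tenocytes and 20.8 in the control. Genes of the unfolded protein response were higher for 15 of 19, with 10 all above (52.6%, against 26.2% of all genes) and 2 all below, at a median of 0.29. Calr, a chaperone of the endoplasmic reticulum, stood at 659, 846 and 876 scaled CPM in OSA tenocytes and 590 in the control, while Hspa5, the best known target of this response, stood at 647, 1136 and 720 in OSA tenocytes and 752 in the control.

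Metallothioneins, metal-binding proteins induced by zinc, glucocorticoids and oxidants, had a median log2 change of 0.72 over 6 members, with 3 all above the control (50%, against 26.2% of all genes). Mt1 stood at 5704, 15678 and 11808 scaled CPM in OSA tenocytes and 4968 in the control, a log2 change of 1.16 ± 0.39 (SE; edgeR adjusted p = 0.551). Mt2 stood at 6026, 20778 and 12970 scaled CPM in OSA tenocytes and 5007 in the control. OSA replicate 1 lay close to the control in both, and the other OSA libraries lay well above it. Acute-phase genes were higher for 13 of 14, and for 10 of 14 with library totals alone, with 6 all above (42.9%, against 26.2% of all genes) and 0 all below, at a median of 0.51, but their largest values sat in some libraries only. Saa3 stood at 121, 3.0 and 77.7 scaled CPM in OSA tenocytes and 3.19 in the control. Socs3, a feedback inhibitor of interleukin 6 signalling, stood at 753, 895 and 858 scaled CPM in OSA tenocytes and 693 in the control.

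The remaining lists are given by their counts. Of all 11708 genes tested, 6089 were higher in OSA tenocytes, and 5107 with library totals alone. Glucocorticoid targets were higher for 11 of 17, with 6 all above (35.3%) and 5 all below (29.4%), against 26.2% of all genes each way. Interferon genes were higher for 17 of 26, antioxidant genes for 13 of 21, complement genes for 7 of 14, chemokines and cytokines for 12 of 19, immediate early genes for 13 of 25 (9 of 25 with library totals alone), heat shock genes for 9 of 14, clock genes for 8 of 18 and cell cycle genes for 6 of 8. Only 8 of the 21 listed cell cycle genes were tested. The summed level of all 21 was lower in every OSA library, at 475, 680 and 637 unscaled CPM in OSA tenocytes and 754 in the control. Fos stood at 9430, 8627 and 7316 scaled CPM in OSA tenocytes and 8301 in the control. Oxidative phosphorylation genes were higher for 24 of 32, and for 14 of 32 with library totals alone, where the median log2 change of 0.07 became -0.01. Ribosomal protein genes were higher for 39 of 39, with 21 all above (53.8%, against 26.2% of all genes) and a median of 0.20, but with library totals alone in place of TMM scaling 32 of 39 were higher, in a fit whose all-gene median was -0.07. No member of these lists passed edgeR's test, but the ribosomal list does not hold Rpl39, which passed as given above.

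**Figure D5:**
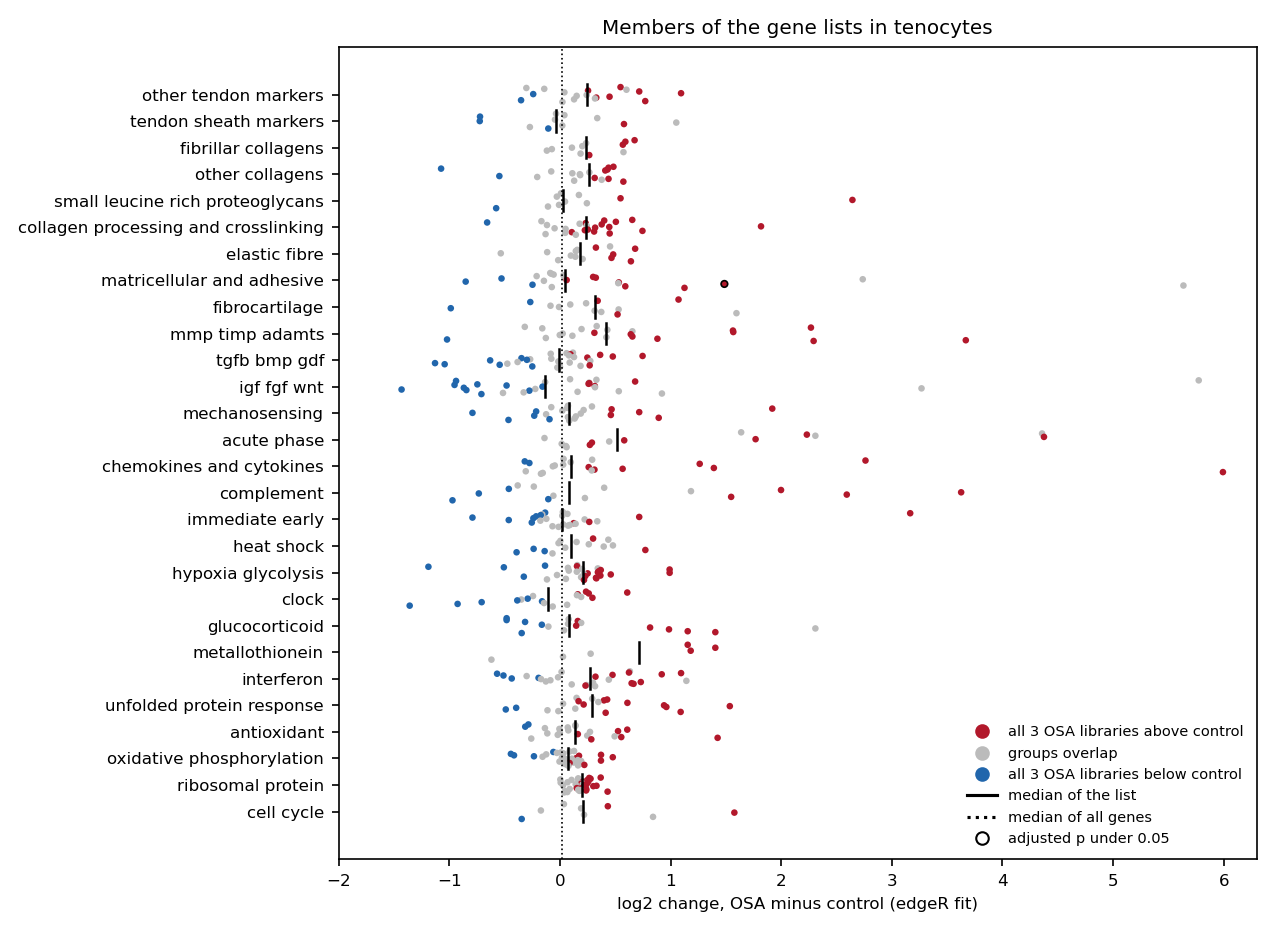
Fitted log2 change, OSA minus control, of every tested member of 28 gene lists in tenocytes. Red points have all 3 OSA libraries above the control and blue points all below, bars mark list medians, the dotted line marks the median of all genes at 0.02, and Fn1 is the ringed point. Points far to the right are genes with few or no control counts, whose fitted change depends on the prior count.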

How the data were processed

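The deposited files hold raw UMI counts per gene and barcode for 33696 genes, made by the authors with Cell Ranger 9.0.1 per the file headers, on builds GRCm39 and mm39 per the submitters' processing notes; how the files were filtered is not given in the sources used here. The members and all gene lists were chosen with earlier results of these data known. Counts of the members were summed per library, and genes kept by filterByExpr were tested with edgeR 4.0.16 (R 4.3.3) after TMM scaling, with robust quasi-likelihood dispersions, 2 residual degrees of freedom and Benjamini-Hochberg adjustment over all genes tested. Genes of the rule stayed in that fit without a test, and each positive rule gene was tested only in the gate that left it out. In simulated counts of 11304 genes, 20% of 100 genes changed by 1 on the log2 scale were called and 97% of 100 changed by 2, with 3 false calls. The simulation gave every gene the common dispersion of 0.0412 and drew the changed genes only from those of higher level. It lacks the gene-wise spread and the unequal subclusters of the real libraries, so these rates do not measure recovery there. Library totals over all barcodes were 78935595, 74007957 and 82184913 UMIs in OSA and 70217449 in the control.

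Subclusters came from scanpy 1.11.5 (1500 variable genes, 20 principal components, 15 neighbours, resolution 0.5) on tenocytes alone, and doublets were marked with Scrublet at an expected rate of 0.1 per library but kept. Named genes were the rule genes, the 12 largest changes per direction (by unadjusted p where fewer than 5 passed, with mean log2 CPM at or above 5 and every OSA library on the same side), passing members of lists and up to 4 of the highest in CPM per list, the 20 most tenocyte-enriched genes, and the called genes of the difference fit. The called genes of low level, Vegfa, Saa3, Lyz2, S100a9 and Pdgfra were added after their values were seen. Alternatives covered scaling, tool, filter, dispersion, gate, doublets, markers of other cell types, depth, subclusters and left-out OSA libraries.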

Additional observations from a re-analysis of the deposited data

Results flagged for a closer look

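Tnfaip2 and Prg4 changed by different amounts in tenocytes and in fibroblasts of the same libraries, by the test of the difference itself. For Tnfaip2 the OSA change in tenocytes minus that in fibroblasts was 1.87 on the log2 scale (edgeR adjusted p = 0.00957), with an adjusted p of 0.582 under the stricter gate and 0.364 without OSA replicate 3. For Prg4 it was -1.53 (edgeR adjusted p = 0.000717), with an adjusted p of 0.12 without OSA replicate 3, and Prg4 lay within the range of the OSA libraries in control tenocytes while it lay under that range in control fibroblasts. Prg4 overlaps Tpr on the opposite strand, which stood at 156, 156 and 120 unscaled CPM in OSA tenocytes and 142 in control tenocytes.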

How the results depend on the processing

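No paired analysis was possible because control replicate 2 was the only control library read, so the groups share a single replicate number. The 10 genes called in tenocytes became 4 with DESeq2, 20 without a filter, 3 without robust dispersions, 24 with the stricter gate, 28 without doublets, 21 without barcodes that carry markers of other cell types, 6 after thinning to equal totals, 31 without subcluster 4, 24 with subclusters 0, 1 and 2 only, 5 with library totals only, and 4 to 63 when 1 OSA library was left out. The last settings on subclusters and library totals, and the gate without Scx, were chosen after seeing the data. All 10 genes were also called without a filter, without doublets, without subcluster 4 and without OSA replicate 1, while 3 of them were called without OSA replicate 3. For the difference between tenocytes and fibroblasts, 2 genes became 1 with the stricter gate and 0 to 89 when 1 OSA library was left out; the 0 came without OSA replicate 3, by edgeR. The lower Scx level ranged from -1.84 to -1.38 when 1 OSA library was left out, and missed the threshold without OSA replicate 3 (adjusted p = 0.685). The difference in tenocyte share kept its direction in every alternative run, between 0.676 and 1.30 percentage points. The cause of these changes was not tested. Over the 181 results on single genes, 2438 values kept direction and side of the threshold, 52 gained it, 44 lost it and 142 called by neither turned sign. None of the 10 called genes changed direction under the alternatives run. The lone control library limits every comparison.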
